A study of Mus musculus with 12 samples.

Results

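Galk2, the 2 genes that follow it on mouse chromosome 2 (Fgf7 and the antisense gene Fam227b), and the 3 other galactose pathway genes Galk1, Galt and Galm were examined in glomerular RNA, 6 of 26264 gene symbols in the count tables. The set was chosen with the substrain differences of Galk2, Fgf7 and Fam227b in these same libraries known, so it was selected on ByJcl against Ajcl levels at baseline and on Day 5. Their substrain differences are therefore given as a description with no test, while the response to adriamycin (ADR) was tested.

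Poly(A) RNA from glomerulus-enriched preparations was sequenced in 12 libraries, 3 in each of 4 groups. The groups were untreated male BALB/cAjcl (Ajcl) mice, untreated male BALB/cByJcl (ByJcl) mice, and mice of each substrain on Day 5 after ADR. ADR (doxorubicin) was a single retro-orbital intravenous dose of 10 mg/kg. All mice were 8 weeks old and came from one vendor. Glomeruli were pulled out with a magnet after bead perfusion of the mouse and collagenase digestion of the kidney. The comparison asks how glomeruli of these closely related inbred substrains differ before and after a podocyte toxin.

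The Leloir pathway turns galactose into glucose 1-phosphate: galactose mutarotase (Galm) sets the sugar's ring form, galactokinase (Galk1) phosphorylates it, and galactose-1-phosphate uridylyltransferase (Galt) exchanges it onto a UDP carrier. Despite its name, Galk2 mainly phosphorylates N-acetylgalactosamine, a sugar salvaged from glycoproteins and glycolipids. Fgf7 (keratinocyte growth factor) is a secreted ligand made by mesenchymal cells that acts on the epithelial splice form of the receptor Fgfr2. The function of Fam227b is poorly described.

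Galk2 lies at chr2:125701029-125826219 on the plus strand of GRCm39, with 10 exons in its canonical transcript. Fgf7 lies on the same strand at chr2:125876578-125934218, and 50358 bases separate it from the end of Galk2. Fam227b runs the other way, at chr2:125825403-125993924 on the minus strand, and the whole of Fgf7 sits inside its span. Galk2 and Fam227b share 283 exonic bases, 3.16% of the merged exons of Galk2 and 11.2% of those of Fam227b. The libraries kept strand, but the strand setting of the counting is not given in the sources used here, so Fam227b values may include reads from Galk2. Galk1 (chr11:115897538-115903578, minus strand), Galt (chr4:41755186-41760050, plus strand) and Galm (chr17:80434877-80492531, plus strand) lie on other chromosomes.

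The sequences before the canonical transcripts of the 3 locus genes are shown because these are the members chosen for their substrain difference. They are reference sequence of GRCm39, not of either substrain, and each is read 5' to 3' on the strand of its gene. The Galk2 window is chr2:125707777-125708026, the 250 bases before its canonical transcript. That transcript starts 6998 bases after the annotated start of the gene, where other transcripts begin, so this window lies inside Galk2. The Fgf7 window is chr2:125876328-125876577, also 250 bases. The Fam227b window is chr2:125993925-125994027, the 103 bases between Fam227b and the gene Dtwd1, which starts on the other side. Capitals mark a CCAAT box.
Galk2: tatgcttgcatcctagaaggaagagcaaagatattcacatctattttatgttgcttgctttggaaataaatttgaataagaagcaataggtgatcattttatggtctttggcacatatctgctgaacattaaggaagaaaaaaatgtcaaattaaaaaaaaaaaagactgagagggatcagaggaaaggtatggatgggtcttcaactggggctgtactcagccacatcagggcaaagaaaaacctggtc
Fgf7: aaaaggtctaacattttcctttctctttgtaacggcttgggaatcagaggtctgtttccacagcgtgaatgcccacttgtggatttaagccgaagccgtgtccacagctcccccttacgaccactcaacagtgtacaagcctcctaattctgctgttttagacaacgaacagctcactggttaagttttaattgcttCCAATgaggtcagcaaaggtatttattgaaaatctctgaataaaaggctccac
Fam227b: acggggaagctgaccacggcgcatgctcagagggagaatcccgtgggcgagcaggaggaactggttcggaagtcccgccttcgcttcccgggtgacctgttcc

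The 3 windows have little in common. The Galk2 window, within the gene, is AT-rich, with 36.8% GC and 0 CpG dinucleotides, against a median of 52.4% GC and 6 CpG over 32851 RefSeq mouse promoters (GRCm38.p6) cut to the same length. The Fgf7 window has 43.6% GC and 6 CpG, and the Fam227b window 65.0% GC and 9 CpG. The GC box motif GGGCGG, the box motif CCAAT and the TATA box motif TATAAA were searched on both strands. The single match was CCAAT in the Fgf7 window, a motif found in 33.8% of the promoters of that length. A match or its lack in these letters is a description only.

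Depth was similar across libraries, at 42198416 to 54687045 counts per library. Among counts of 1 to 49, between 77.1% and 82.9% were even numbers in each library. If the 2 mates of a pair were counted separately, intervals and floors from counts are too narrow, and they cover counting error only. All 8 podocyte markers were detected in every library, with summed levels of 7031 to 20648.5 CPM. The first Ajcl Day 5 library was left out of the study's primary analysis for low glomerular purity. It is left out of the main fit here. It is shown in the levels, used in the correlations over 12 libraries and included in the alternative fit of all 12 libraries. Whether each library came from a separate mouse is not stated in the labels, so the spread between libraries may be partly technical. Baseline and Day 5 libraries come in separate tables, so table and ADR cannot be told apart.

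Galk2 was close to absent in Ajcl glomeruli and well expressed in ByJcl glomeruli, both before and after ADR. Its raw counts were 4, 0 and 16 in the untreated Ajcl libraries and 1079, 1039 and 1182 in the untreated ByJcl libraries. On Day 5 they were 16, 6 and 6 in Ajcl, the first of these being the left-out library, and 982, 817 and 1007 in ByJcl. The substrains did not overlap at either time, and the lowest ByJcl library held 817 counts against 16 in the highest Ajcl library.

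As counts scaled to library size with TMM factors (CPM), Galk2 measured 0.145 ± 0.176 (SD, n = 3) in untreated Ajcl and 22.4 ± 0.567 (SD, n = 3) in untreated ByJcl. On Day 5 it measured 0.200 ± 0.126 (SD, n = 3) and 20.4 ± 1.67 (SD, n = 3). From the summed counts, the ByJcl level was 153 times the Ajcl level at baseline, with an exact 95% counting interval of 99.0 to 251. On Day 5 the ratio was 103, with an interval of 71.1 to 155, over all libraries. Without the left-out library, which holds 16 of the 28 Ajcl counts, it was 162 (92.4 to 313). The fitted log2FC of ByJcl relative to Ajcl was 7.26 at baseline and 7.33 on Day 5. Without the third Ajcl baseline library, which holds 16 of the 20 baseline counts, the baseline value was 8.89. The counting intervals do not cover this spread between libraries.

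Few Ajcl counts remained for Galk2, yet they were not all 0. A count of 3 corresponds to 0.0659 CPM on average in the untreated Ajcl libraries, and 1 of the 3 libraries stood at 0. The Ajcl level was 0.653% of the ByJcl level at baseline and 0.970% on Day 5, or 0.619% on Day 5 without the left-out library. The longest exact run shared by the annotated transcripts of Galk1 and Galk2 is 18 bases, CAGCTGCCCTGAGCTGGA. Reads were not examined, so the source of the Ajcl counts was not tested.

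Fgf7 followed the same order at a far lower level. It had 0 counts in each untreated Ajcl library and 26, 26 and 30 in the untreated ByJcl libraries. On Day 5 the Ajcl libraries held 2, 0 and 4 counts and the ByJcl libraries 28, 32 and 18. No Ajcl library reached any ByJcl library. In ByJcl the level was 0.556 ± 0.00377 CPM (SD, n = 3) at baseline and 0.570 ± 0.170 CPM (SD, n = 3) on Day 5.

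Because all untreated Ajcl libraries were at 0, the baseline fold of Fgf7 is a lower bound. Against a floor of 3 counts per library, Fgf7 was at least 8.44-fold higher in ByJcl. On Day 5 the Ajcl mean of 0.0409 CPM, from 6 counts in all, lay below the floor of 0.0639 CPM. The ratio of summed counts was then 13.4, known only to within an exact 95% counting interval of 5.87 to 37.5. The defining fibroblast markers, from cells that are a known source of Fgf7, were measured beside it, with up to 2 of the 6 at 0 in a library. They summed to 161 to 184 CPM in untreated Ajcl and 174 to 235 CPM in untreated ByJcl. On Day 5 their sums were 157 to 217 CPM in Ajcl and 98.3 to 183 CPM in ByJcl. The single markers went both ways. Of the 5 tested, 4 at baseline and 3 on Day 5 had a positive log2FC of ByJcl relative to Ajcl, with medians of 0.35 and 0.58, and 0 were called by edgeR (1 and 2 at an unadjusted p below 0.05, DESeq2 0 and 1 higher). On Day 5 Col1a1 had 0.75, Dcn 0.58 and Dpt 1.60, while Pdgfra had -0.73 and Postn -0.46. Their part in the Fgf7 difference was not tested. In bulk RNA, fewer cells of a type and less RNA per cell cannot be told apart.

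Fam227b stood near the limit of detection. It had 0 counts in each untreated Ajcl library and 5, 2 and 7 in the untreated ByJcl libraries. On Day 5 the Ajcl libraries held 0, 0 and 2 counts and the ByJcl libraries 2, 15 and 11. At baseline every ByJcl library exceeded every Ajcl library, while on Day 5 the lowest ByJcl library and the highest Ajcl library both held 2 counts. The untreated ByJcl mean stood at 1.41 times the floor of 3 counts per library. It rests on 5, 2 and 7 counts, of which the 2 lies below that floor, so no lower bound of the fold is given. On Day 5 the Ajcl level rested on 2 counts in 1 library, a mean of 0.0133 CPM and below the floor. The ratio of 14.4 (9.68 without the left-out library) was known only to within an exact 95% counting interval of 3.63 to 125.

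**Figure D1:**
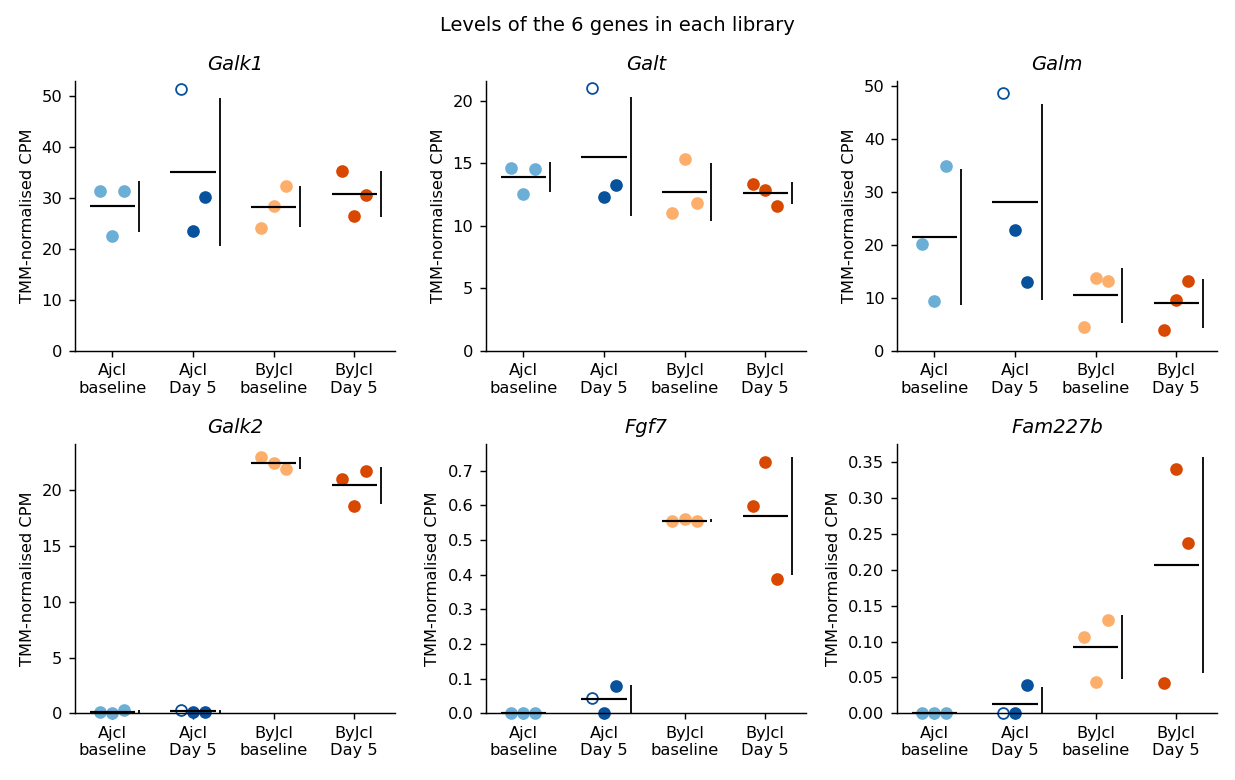
Each panel plots 1 gene's TMM-normalised CPM (linear axis from 0) in the 12 libraries, 3 per group, with the group mean as a horizontal line and the SD as a vertical bar. The open circle is the left-out Ajcl Day 5 library. Galk2 and Fgf7 separate the substrains at both times, Galk1 and Galt do not, and Galm scatters most within groups.

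Galk1, which catalyses the first committed step of galactose use, had overlapping levels in the substrains. Untreated Ajcl libraries had 31.3, 22.5 and 31.3 CPM of Galk1, and untreated ByJcl libraries 24.1, 28.5 and 32.3 CPM. The Day 5 values were 51.4, 23.6 and 30.2 CPM in Ajcl and 35.3, 26.5 and 30.5 CPM in ByJcl. The groups overlapped at both times, and the single high value was the left-out library. The log2FC of ByJcl relative to Ajcl was 0.02 at baseline and 0.22 on Day 5, and the Day 5 value became -0.16 with all 12 libraries.

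Per kilobase of canonical transcript, which allows levels to be compared between genes, Galk1 stood above Galk2 in ByJcl glomeruli. In untreated ByJcl libraries Galk1 had 19.7 ± 2.85 CPM per kb (SD, n = 3) and Galk2 11.6 ± 0.294 CPM per kb (SD, n = 3). Galk2 thus held 37.3% ± 4.02 (SD, n = 3) of the summed Galk1 and Galk2 reads per kb in untreated ByJcl and 33.2% ± 2.21 (SD, n = 3) on Day 5. In Ajcl its share was 0.343% ± 0.417 (SD, n = 3) and 0.406% ± 0.103 (SD, n = 3). With the merged length of all exons in place of the canonical transcript, the ByJcl shares were 26.1% and 22.8%.

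Galt levels overlapped in the same way. Untreated Ajcl libraries had 14.6, 12.5 and 14.5 CPM of Galt, and untreated ByJcl libraries 10.99, 15.4 and 11.8 CPM. The Day 5 values were 21.1, 12.3 and 13.3 CPM in Ajcl and 13.3, 12.8 and 11.6 CPM in ByJcl, with the left-out library again the highest. The log2FC of ByJcl relative to Ajcl was -0.11 at baseline and 0.01 on Day 5, and the Day 5 value was -0.27 with all 12 libraries. The groups overlapped at both times.

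Galm was lower on average in ByJcl but varied more between libraries than any other enzyme of the 3. Untreated Ajcl libraries had 20.1, 9.44 and 34.9 CPM of Galm, and untreated ByJcl libraries 4.47, 13.7 and 13.2 CPM. The Day 5 values were 48.7, 22.8 and 12.9 CPM in Ajcl and 3.97, 9.59 and 13.2 CPM in ByJcl. The substrains overlapped at both times. The log2FC was -1.02 at baseline and -0.97 on Day 5. The Day 5 Ajcl mean was 17.8 CPM in the fitted libraries and 28.1 CPM with the left-out library, against 8.92 CPM in ByJcl.

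Galm moved with the summed level of 7 proximal tubule markers (Lrp2, Cubn, Slc34a1, Slc5a12, Slc22a6, Slc13a3 and Miox). Over the 12 libraries and on log scales, Pearson's r was 0.97 (permutation p = 1e-05, the smallest that 100000 resamples can give) and Spearman's rho was 0.97 (p = 1e-05). Without the 2 libraries farthest from the median, r was 0.95. Within Ajcl r was 0.98 and within ByJcl 0.99, within baseline libraries 0.98 and within Day 5 libraries 0.97 (n = 6 each, exact permutation p of 0.00139 to 0.00417).

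The proximal tubule sum ranged from 857 to 3324 CPM in untreated Ajcl and from 304 to 1505 CPM in untreated ByJcl. On Day 5 it ranged from 1247 to 3400 CPM in Ajcl and from 245 to 1403 CPM in ByJcl. None of the 7 markers was at 0 in any library. The sum of 4 distal nephron markers (Umod, Slc12a3, Aqp2 and Calb1) was 432 to 1406 CPM in untreated Ajcl and 95.8 to 457 CPM in untreated ByJcl, which overlapped, and 647 to 1699 CPM in Ajcl and 65.6 to 349 CPM in ByJcl on Day 5, which did not. None of the 4 was at 0, and 0 were called between the substrains (edgeR, 1 at an unadjusted p below 0.05 at baseline and 2 on Day 5, DESeq2 0 and 1). The 2 libraries highest in Galm were the 2 highest in this sum, and the 2 lowest in Galm the 2 lowest. The part of tubular material in the Galm values was not tested.

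Galk1 and Galt were set against the same sums, and the differences between these correlations were not tested. Of the 6 relations computed (3 genes with tubule and with podocyte sums), only those of Galm with the tubule sum passed, with a Benjamini-Hochberg adjusted p of 6e-05. For Galk1 r with the tubule sum was 0.36 (permutation p = 0.249, adjusted p = 0.374), with rho 0.24 (permutation p = 0.457). It was 0.055 without the left-out library and 0.64 without the 2 libraries farthest from the median. For Galt r was 0.57 (permutation p = 0.0532, adjusted p = 0.16), with rho 0.51 (permutation p = 0.0933), and 0.65 without the 2 farthest libraries. Within baseline libraries r was 0.71 for Galk1 and 0.80 for Galt (n = 6, exact permutation p = 0.11 and 0.0333, unadjusted), and within Day 5 libraries 0.25 and 0.48 (n = 6, exact permutation p = 0.621 and 0.322). Without the left-out library the Day 5 values turned to -0.68 for Galk1 and -0.61 for Galt, so their sign rested on that library.

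With the sum of 8 podocyte markers, r was -0.42 for Galk1, -0.22 for Galt and -0.08 for Galm (permutation p = 0.175, 0.52 and 0.794). These values moved to -0.32, 0.03 and 0.10 without the left-out library, and to -0.71, -0.58 and -0.24 without the 2 libraries farthest from the median. Within baseline libraries r was -0.68 for Galk1, -0.71 for Galt and -0.81 for Galm (n = 6, exact permutation p = 0.119, 0.124 and 0.0431, unadjusted). The baseline rho was -0.60, -0.77 and -0.94 in the same order (exact permutation p = 0.242, 0.103 and 0.0167). Within Day 5 libraries r was -0.24, -0.07 and 0.19 (exact permutation p = 0.635, 0.851 and 0.735).

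**Figure D2:**
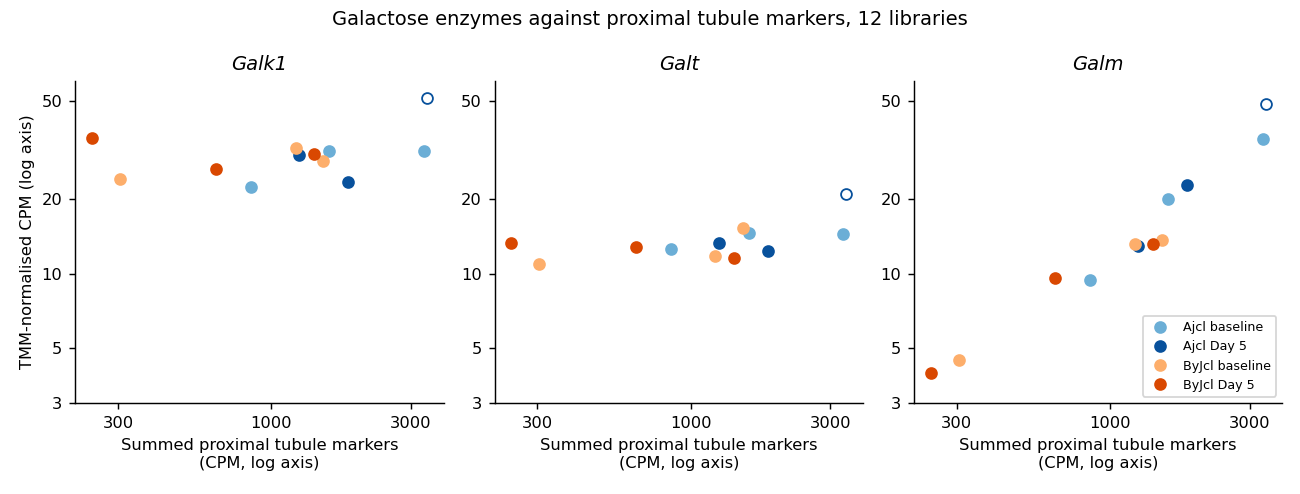
Levels of Galk1, Galt and Galm (TMM-normalised CPM, log axis) are plotted against the summed CPM of 7 proximal tubule markers (log axis) in the 12 libraries, coloured by group, with the left-out library open. Galm lies along a line from 3.97 CPM at the lowest tubule sum to 48.7 CPM at the highest, whereas Galk1 ranges from 22.5 to 51.4 CPM and Galt from 10.99 to 21.1 CPM.

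On Day 5 after ADR, no member passed the test in ByJcl, and none of the 3 enzymes did in Ajcl. By edgeR's quasi-likelihood test, 0 of 6 members were called in ByJcl, where 10.6% of the 17002 genes tested were called, and 0 of 6 had an unadjusted p below 0.05. All 6 members passed the low-count filter, but Galk2, Fgf7 and Fam227b did so through their ByJcl libraries, and their Ajcl counts are too few for a test in Ajcl to inform. Fam227b passed through its Day 5 ByJcl libraries alone, so its test in ByJcl does not inform either. Of the 3 enzymes Galk1, Galt and Galm, 0 were called in Ajcl against 0.312% of genes, and 0 of 3 had an unadjusted p below 0.05. DESeq2 also called 0 of 6 in ByJcl and 0 of these 3 in Ajcl.

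In ByJcl, Galk2 had a log2FC of -0.11 from baseline to Day 5 (SE 0.37, 95% interval -0.92 to 0.70, adjusted p = 0.885, edgeR). A halving or doubling of Galk2 is a log2FC of -1 or 1, which lies outside that interval. The fit pools the spread of each gene over all 4 groups. The ByJcl intervals of Galk2, Fgf7 and Fam227b therefore also reflect the scatter of their few Ajcl counts. Fgf7 in ByJcl had a log2FC of 0.06 (SE 0.62, 95% interval -1.34 to 1.46, adjusted p = 0.963), a much wider range. Fam227b had a log2FC of 1.13 (SE 0.95, 95% interval -1.01 to 3.27), given as a description. It entered the fit through its ByJcl Day 5 replicates 2 and 3 (15 and 11 counts), against 5, 2 and 7 counts at baseline.

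Among the galactose enzymes in ByJcl, Galk1 and Galt had narrow intervals and Galm a wide one. Galk1 had a log2FC of 0.15 (SE 0.17, 95% interval -0.23 to 0.53, adjusted p = 0.633) and Galt of 0.02 (SE 0.15, 95% interval -0.31 to 0.34, adjusted p = 0.962). Galm had a log2FC of -0.20 (SE 0.54, 95% interval -1.38 to 0.98, adjusted p = 0.849).

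In Ajcl, with 2 Day 5 libraries in the fit, Galk1 had a log2FC of -0.05 (SE 0.19, 95% interval -0.48 to 0.37, adjusted p = 0.957). Galt had -0.10 (SE 0.17, 95% interval -0.46 to 0.26, adjusted p = 0.899) and Galm -0.25 (SE 0.60, 95% interval -1.56 to 1.06, adjusted p = 0.933). With the left-out library included, these values turned positive, to 0.31, 0.16 and 0.38 in the same order. For Galk2, with 0 to 16 counts in the fitted Ajcl libraries, the fit gave -0.18 with a 95% interval of -1.93 to 1.58, and 0.44 with the left-out library, which leaves its direction in Ajcl undetermined. Fgf7 and Fam227b were at or below the floor of 3 counts per library in Ajcl at both times on average, so no fold or test is given.

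The ADR response of the 3 enzymes did not differ detectably between the substrains. The interaction test called 0 of 3 and 0% of all genes by edgeR, with 0 of 3 and 1363 of all genes at an unadjusted p below 0.05. DESeq2 called 0 of 3 and 23 of all genes. The ByJcl response minus the Ajcl response was 0.20 for Galk1 (95% interval -0.37 to 0.77), 0.11 for Galt (-0.37 to 0.60) and 0.04 for Galm (-1.72 to 1.80) on the log2 scale. For Galk2 it was 0.07 (-1.80 to 1.94), resting on its few Ajcl counts. The intervals of Galm and Galk2 span more than a 2-fold difference either way.

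**Figure D3:**
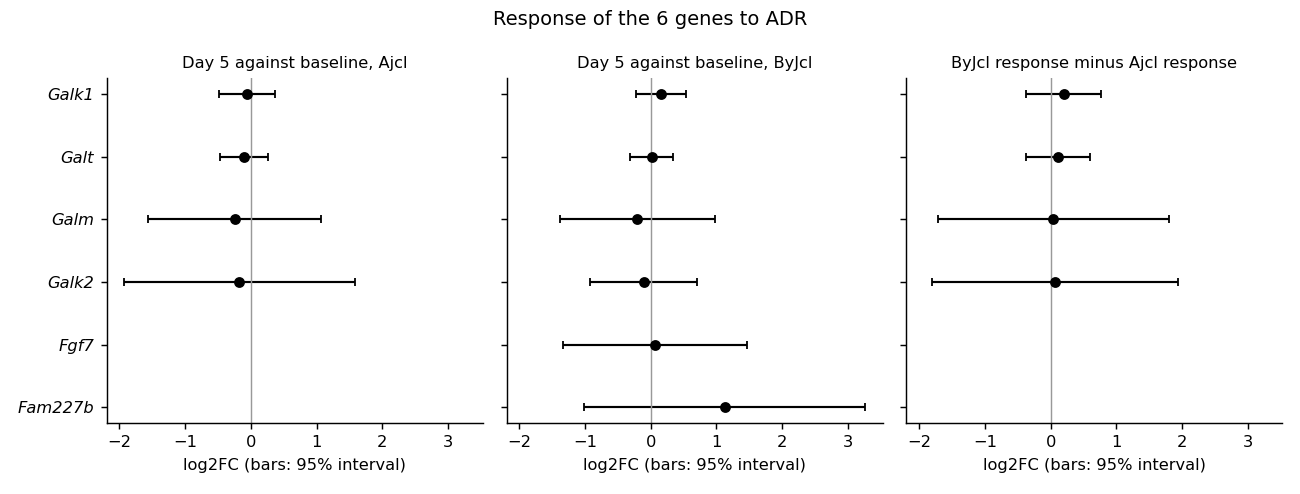
Points are the log2FC from baseline to Day 5 in Ajcl and in ByJcl and, at the right, the ByJcl response minus the Ajcl response, with 95% intervals from the edgeR fit on one shared axis. Fgf7 and Fam227b are drawn for ByJcl alone, because Ajcl stood at the count floor at both times. Every interval drawn includes 0.

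Among the other genes within 1 Mb of Galk2, none tested was called between the substrains. Of 21 such neighbours in the tables, 19 were tested and 0 were called by edgeR between the substrains at baseline, where 0.159% of all genes were called, or on Day 5, where 0.165% were called. In each comparison 1 of the 19 had an unadjusted p below 0.05, and DESeq2 called 0. Their median log2FC of ByJcl relative to Ajcl was -0.03 at baseline and 0.02 on Day 5, against 0.01 and 0.00 over all genes.

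The nearest genes on both sides had overlapping levels at baseline. Cops2, a subunit of the COP9 signalosome, starts across from Galk2 on the other strand, and their annotated ends overlap by 113 bases. Its baseline log2FC was -0.07 (SE 0.13, adjusted p = 0.881, edgeR), with 89.1, 86.2 and 70.7 CPM in Ajcl and 80.7, 72.3 and 78.9 CPM in ByJcl. On Day 5 Cops2 measured 103, 81.7 and 75.96 CPM in Ajcl, the first being the left-out library, and 91.5, 116 and 92.5 CPM in ByJcl. The fitted Ajcl libraries lay below all ByJcl libraries and the left-out one among them. Its Day 5 log2FC was 0.37 (95% interval 0.06 to 0.68, unadjusted p = 0.0228, adjusted p = 0.286, edgeR), the single neighbour with an unadjusted p below 0.05, and its interaction was 0.44 (adjusted p = 0.62, edgeR). For Dtwd1, a predicted tRNA-modifying enzyme on the far side of Fam227b, the baseline log2FC was -0.03 (SE 0.17, adjusted p = 0.973, edgeR), with 6.48, 5.58 and 5.22 CPM in Ajcl and 6.15, 4.94 and 5.60 CPM in ByJcl.

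The other neighbours varied more widely. At baseline the range ran from -1.34 for Slc12a1, the sodium-potassium-chloride cotransporter of the thick ascending limb, to 2.11 for Usp50, a ubiquitin peptidase relative with 14 counts or fewer in every library. The part of the distal nephron material described with Galm in the Slc12a1 value was not tested. Slc27a2, a fatty acid transporter of the proximal tubule, had -0.75 at baseline and -1.09 on Day 5. Eid1, Secisbp2l, Cep152, Shc4, Fbn1, Dut, Myef2 and Slc24a5 on the Cops2 side had baseline values between -0.28 and 0.49. Atp8b4, Hdc, Gabpb1, Usp8, Trpm7 and Sppl2a beyond Dtwd1 had values between -0.62 and 0.88. Ctxn2 and Mir3473g were too low to be tested.

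Of the 19 neighbours, 1 was called with ADR in ByJcl by edgeR, against 10.6% of all genes. Hdc, the enzyme that makes histamine, rose on Day 5 in ByJcl by a log2FC of 1.31 (SE 0.32, adjusted p = 0.028, edgeR), from 5.88, 5.00 and 6.12 CPM to 13.6, 19.6 and 8.25 CPM. The call was lost without any single ByJcl baseline library and without the first or second ByJcl Day 5 library, with an adjusted p of up to 0.119. Of 4 immune cell markers (Ptprc, Cd68, Lyz2 and Cd3e), 1 was called in the same comparison, Cd68, with a log2FC of 1.17 (adjusted p = 0.0128, edgeR). The uncalled markers went both ways, with 0.84 for Cd3e, 0.35 for Lyz2 and -0.39 for Ptprc. The summed level of the 4 markers was 48.5 to 86.6 CPM in untreated ByJcl and 55.4 to 105 CPM on Day 5, with none at 0. Their part in the Hdc value was not tested. DESeq2 also called Cops2 higher in ByJcl (log2FC 0.42, adjusted p = 0.0277), where edgeR gave 0.40 (adjusted p = 0.0671). In Ajcl 0 of the 19 were called by edgeR or DESeq2, with 2 at an unadjusted p below 0.05.

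**Figure D4:**
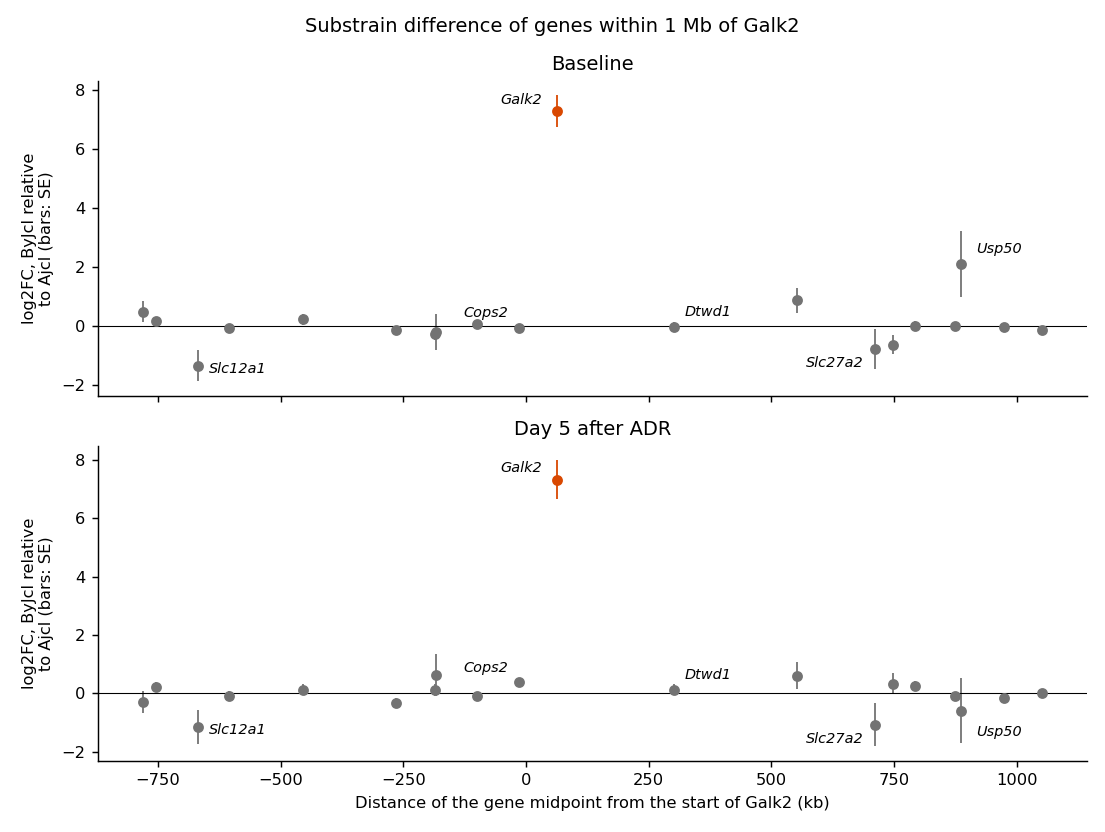
The log2FC of ByJcl relative to Ajcl (bars: SE) is plotted against the distance of each tested gene's midpoint from the start of Galk2, in kb, at baseline (top) and on Day 5 (bottom). Galk2 is orange, at 7.26 and 7.33, and the other neighbours are grey, between -1.34 and 2.11 at baseline. Fgf7 and Fam227b are not drawn, because their fitted values over Ajcl counts near 0 depend on the prior count.

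The other listed genes of galactose use showed no called substrain difference. Of the 13 tested, 0 were called at baseline (edgeR, 1 at an unadjusted p below 0.05, DESeq2 0) or on Day 5 (3 at an unadjusted p below 0.05). Only 0.159% and 0.165% of all genes were called there, so a count of 0 is near the background. DESeq2 called Pgm2 higher in ByJcl on Day 5. The median log2FC was -0.22 at baseline and -0.01 on Day 5, against 0.01 and 0.00 over all genes.

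With ADR, 2 of these 13 genes changed in ByJcl, where 10.6% of all genes were called. Pgm2, a phosphoglucomutase, rose from 28.8, 27.6 and 29.5 CPM to 38.4, 45.0 and 41.4 CPM, a log2FC of 0.56 (SE 0.13, adjusted p = 0.0202, edgeR). Galc, the lysosomal galactosylceramidase, fell from 223, 181 and 191 CPM to 89.7, 91.6 and 90.6 CPM, a log2FC of -1.11 (SE 0.14, adjusted p = 0.00183, edgeR). The ByJcl libraries of Day 5 and baseline did not overlap for either gene.

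The Galc call held in all 17 alternative fits. The Pgm2 call was lost without any single ByJcl baseline library or the second ByJcl Day 5 library, with an adjusted p of up to 0.0837. In Ajcl 0 of the 13 were called (edgeR, 3 at an unadjusted p below 0.05, DESeq2 0), with a log2FC of 0.01 for Pgm2 and -0.56 for Galc. The interaction was called for 0 of 13 by edgeR (2 at an unadjusted p below 0.05, DESeq2 0), with an adjusted p of 0.62 for both Pgm2 and Galc. All 8 podocyte markers fell in ByJcl on Day 5, with log2FC from -1.68 to -0.92, while 0 of 8 were called in Ajcl (edgeR, 2 at an unadjusted p below 0.05, DESeq2 1), and their part in the Galc and Pgm2 values was not tested.

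The remaining 11 were not called in ByJcl, with UDP-glucose pyrophosphorylase (Ugp2, log2FC -0.03), Pgm1 (-0.08), the UDP-galactose transporter Slc35a2 (-0.03) and aldose reductase (Akr1b3, -0.29) as examples. DESeq2 also called B4galt1 and Gla higher.

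The amino sugar list, the enzymes around N-acetylgalactosamine and N-acetylglucosamine salvage in which Galk2 takes part, showed no called gene. Of its 13 tested genes 0 were called between the substrains at baseline (3 at an unadjusted p below 0.05) or on Day 5 (1), and 0 with ADR in ByJcl (3) or Ajcl (1), all by edgeR. Over all genes 0.159%, 0.165%, 10.6% and 0.312% were called in these comparisons, so a count of 0 between the substrains or in Ajcl is near the background. DESeq2 called 1, Uap1l1, in ByJcl with ADR and 0 in the other 3. Uap1, the pyrophosphorylase that makes UDP-N-acetylgalactosamine from the product of Galk2, had -0.08 as its baseline log2FC (SE 0.11, adjusted p = 0.844, edgeR), while its relative Uap1l1 had -0.25. N-acetylglucosamine kinase (Nagk) had -0.13.

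The Fgf7 axis, its receptor, related ligands, binding proteins and feedback inhibitors, also held no called substrain difference. Of 15 tested genes 0 were called by edgeR at baseline (4 at an unadjusted p below 0.05) or on Day 5 (6), near the background of 0.159% and 0.165% of all genes called. At an unadjusted p below 0.05 there were 1418 and 2374 of the 17002 genes. DESeq2 called Fgfbp1 higher in ByJcl at baseline and Fgfr4 lower on Day 5. For Fgfr2, the receptor gene of Fgf7, the baseline log2FC was 0.17 (SE 0.13, adjusted p = 0.692, edgeR), with 107, 135 and 100.0 CPM in Ajcl and 136, 126 and 120 CPM in ByJcl. The lowest Fgfr2 level in any of the 12 libraries was 66.8 CPM.

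With ADR, 3 of the 15 changed in ByJcl, again against 10.6% of all genes. Dusp6, a phosphatase induced by ERK signalling, rose by a log2FC of 0.78 (SE 0.17, adjusted p = 0.016, edgeR), and the secreted FGF carrier Fgfbp1 by 0.47 (SE 0.10, adjusted p = 0.0183). Fgfr4 fell by 0.59 on the log2 scale (SE 0.14, adjusted p = 0.0268). In the same comparison all 8 podocyte markers and 2 of 6 glomerular endothelial markers (Ehd3, log2FC -0.81, and Flt1, -0.54) were called lower by edgeR. The endothelial markers went both ways, 4 with a negative and 2 with a positive log2FC (Pecam1, 0.29, and Cdh5, 0.13, neither called). The part of the podocyte and endothelial markers in these values was not tested. The endothelial markers summed to 6964 to 8518.6 CPM in untreated ByJcl and 4112 to 6089 CPM on Day 5, with none at 0. Fgfbp1 also rose in Ajcl, by 0.65 (SE 0.12, adjusted p = 0.0483), from 73.4, 82.2 and 84.1 CPM to 126 and 122 CPM in the fitted libraries.

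These calls depended on single libraries. Dusp6 lost its call without the first or second ByJcl baseline library or the second ByJcl Day 5 library (adjusted p up to 0.0688). Fgfr4 lost it without ByJcl baseline replicate 1 or 3 or ByJcl Day 5 replicate 2 or 3 (up to 0.101). Fgfbp1 lost its ByJcl call without the first or second ByJcl baseline library (up to 0.0791) and with all 12 libraries. The Ajcl call of Fgfbp1 was kept in 1 of 11 fits that left out a library, the one without the third ByJcl baseline library (up to 0.55). Among the 12 genes not called in ByJcl were Fgfr1 (log2FC 0.14), Fgfr2 (-0.29), Fgfr3 (0.63) and Fgf1 (0.20), and the lowest value belonged to Fgf22, which had 0 counts in each ByJcl Day 5 library. DESeq2 also called Fgfr3 higher and Fgf22 and Spry1 lower in ByJcl.

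**Figure D5:**
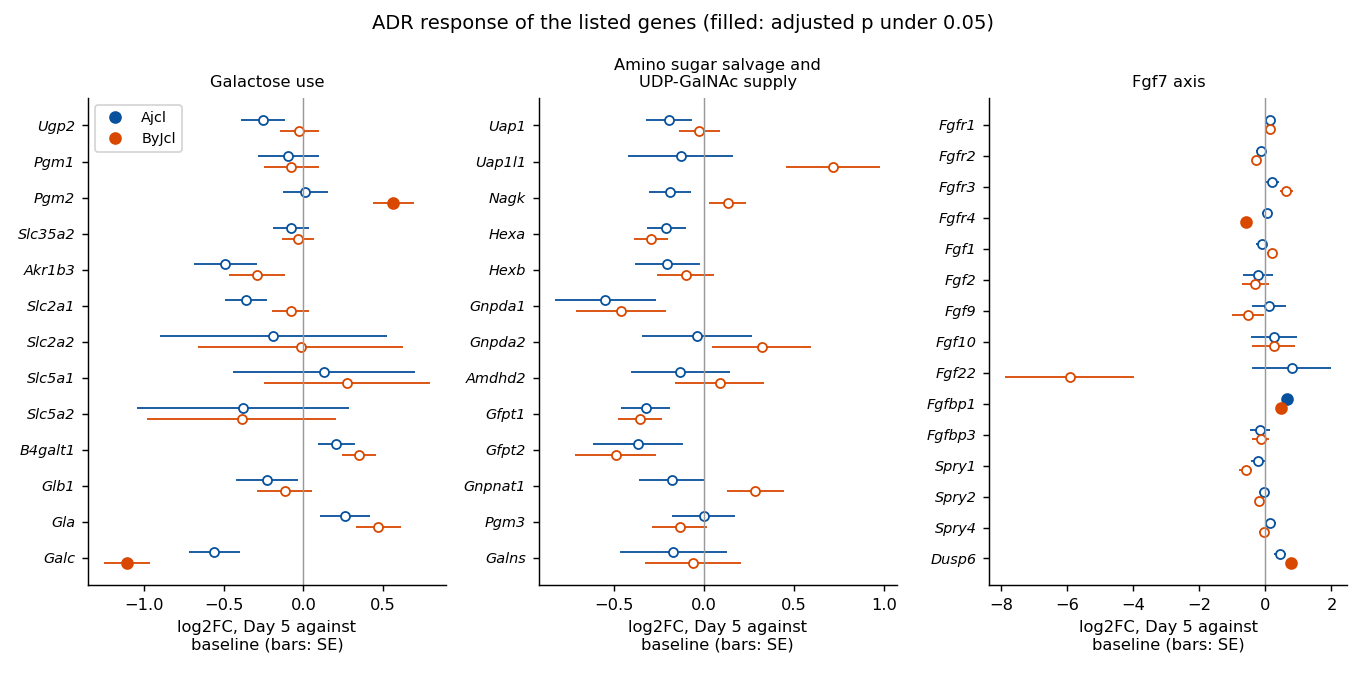
The log2FC from baseline to Day 5 (bars: SE) is plotted for each tested gene of the 3 lists in Ajcl (blue) and ByJcl (orange), with filled symbols for an adjusted p under 0.05 by edgeR. In ByJcl the filled symbols are Pgm2, Galc, Fgfr4, Fgfbp1 and Dusp6, and in Ajcl Fgfbp1, while the amino sugar list has none.

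The genes nearest to Galk2 in pattern were ranked across the 12 libraries. By Pearson's r of log2(CPM + 0.5), the 5 most like it were Ubtd1 (r = 0.99), Oas1a (0.99), Ppp1r3a (0.98), its neighbour Fgf7 (0.97) and Serpina1b (0.97). The 5 most opposite were Otud3 (r = -0.99), Arl2bp (-0.98), H2-Q6 (-0.98), Amd2 (-0.97) and Nlrp1b (-0.94). Apart from Fgf7 these lie on chromosomes other than that of Galk2. The points fall into the substrains as clusters, so r here describes a difference between substrains and carries no p. Otud3, as the closest opposite, measured 29.5 to 41.5 CPM in Ajcl and 1.17 to 2.63 CPM in ByJcl. Oas1a, H2-Q6 and Serpina1b belong to families of near-identical copies among which reads can be split, so their levels are uncertain. Such splitting was not examined for any gene ranked here, Amd2 and Nlrp1b included.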

How the data were processed

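Glomerulus-enriched RNA of 12 libraries was sequenced as strand-specific poly(A) paired-end reads. Per the study's methods and the labels, the authors trimmed the reads (Trimmomatic), aligned them to GRCm39 (STAR) and counted them per gene (featureCounts), and deposited raw counts, one table for baseline and one for Day 5. Totals per library were 42198416 to 54687045 counts.

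The members and gene lists were chosen with earlier results of these data known. Groups came from the sample labels. Genes were filtered with filterByExpr by group (17002 of 26264 kept), scaled by TMM and fitted with edgeR 4.0.16 (R 4.3.3) over 11 libraries and 4 groups by the quasi-likelihood F test. The Benjamini-Hochberg adjustment ran over all genes tested, with calls at an adjusted p under 0.05. CPM used TMM factors over all 12 libraries. The procedure was tested on simulated data. DESeq2 1.42.0, RLE factors, other filters, all 12 libraries, a replicate block and leaving out each library were the alternatives. Pearson and Spearman relations used permutation of libraries. Summaries and plots came from Python 3.11.15.

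Named were the 6 members, neighbours within 1 Mb of Galk2 in both tables, list genes called in any contrast with up to 4 further examples per list in list order, and the 5 genes most like and most opposite to Galk2. Genes named in addition (Fgf22, and genes called by DESeq2 alone) were chosen after their values were seen. Annotation was GENCODE mouse release 39, and 23897 symbols had its name. Of the cell type lists, podocyte, glomerular endothelial, proximal tubule, distal nephron, fibroblast and immune markers are used. Genes of the lists that are not reported here were left out of the list counts.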

Additional observations from a re-analysis of the deposited data

Results flagged for a closer look

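The first Ajcl Day 5 library, which the main fit did not use, held 5 of the 6 members above every untreated Ajcl library. Galk1 stood at 51.4 CPM against a highest untreated Ajcl value of 31.3 CPM, Galt at 21.1 against 14.6 CPM, and Galm at 48.7 against 34.9 CPM. Galk2 stood at 0.346 against 0.341 CPM, 16 counts in both libraries. Fgf7 had 2 counts there and 0 in each untreated Ajcl library, under the floor of 3 counts. This library also had the highest proximal tubule sum of the 12, at 3400 CPM. The part of tubular material in these values was not tested.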

How the results depend on the processing

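The number of members called with ADR in ByJcl was 0 under each of the 17 alternatives that could be fitted, as was the number of the enzymes Galk1, Galt and Galm called in Ajcl and in the interaction. The Ajcl counts of the other 3 members are too few for such a count to inform. Fam227b passed the low-count filter in 14 of them. The number of list and neighbour genes called between the substrains was 0 in the fits that left out a library at baseline and 0 to 1 on Day 5 (Dusp6, without the third Ajcl Day 5 library), and 1 at baseline and 2 on Day 5 by DESeq2. With all 12 libraries, directions of uncalled ADR values in Ajcl turned, to 0.31 for Galk1, 0.44 for Galk2, 0.16 for Galt and 0.38 for Galm on the log2 scale, and those of the interaction to -0.14, -0.54, -0.13 and -0.58. The cause was not tested.

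Leaving out a library in turn gave log2FC ranges that crossed 0. In ByJcl with ADR these were -0.066 to 0.16 for Galt, -0.57 to 0.15 for Galm and -0.14 to 0.30 for Fgf7. In Ajcl they were -0.29 to 0.12 for Galk1, -0.76 to 1.46 for Galk2 and -0.70 to 0.28 for Galm. In the interaction they were -1.57 to 0.65 for Galk2 and -0.48 to 0.50 for Galm. No ADR log2FC of Fgf7 or Fam227b in Ajcl and no interaction was compared, since Ajcl stood at or below the floor on average. The Ajcl values of Galk2 rest on 0 to 16 counts per library.

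The count of all genes called with ADR in ByJcl, 1800, fell to 680 without the second ByJcl Day 5 library and was 2056 without the first Ajcl baseline library. Same-numbered libraries correlated from -0.36 to 0.51 and differently numbered ones from -0.65 to 0.54. These ranges overlap and show no pairing by number, but with so few libraries per group they cannot exclude it. With the replicate block the ADR log2FC of Galk2 in ByJcl was -0.12 and that of Galm in Ajcl -0.54, neither called. The block called 1592 genes with ADR in ByJcl and 26 in Ajcl against 53, and among named genes it lost the Ajcl call of Fgfbp1 (adjusted p = 0.108). Between the substrains on Day 5, 28 genes were called by edgeR, 72 with all 12 libraries, 555 by DESeq2, 218 without the third Ajcl Day 5 library and 9 without the second. At baseline 27 were called by edgeR and 101 by DESeq2, and with ADR in Ajcl 53 and 301. Without the first Ajcl baseline library edgeR called 12 at baseline and 14 with ADR in Ajcl. Without the first ByJcl Day 5 library it called 29 and 80. Low counts limit Fgf7 and Fam227b, and Galk2 in Ajcl.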
